A study of Mus musculus with 9 samples.

Results

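Alveolar macrophages are the resident phagocytes of the air spaces, and 10 genes that mark them or direct their identity were followed here: Ear1, Ear2, Marco, Siglecf, Fabp4, Plet1, Chil3, Krt79, Pparg and Car4. They were chosen by name, with earlier results of these data known, and each matched 1 of the 45706 rows of the deposited table. All 10 were above 1 TPM in each of the 9 lungs, and so were among the 13248 genes tested. Bulk RNA sequencing was done on lungs of female BALB/c mice that were 4 to 6 weeks old and carried 4T1 tumours, grown from a mammary carcinoma line of the mouse, on the right flank. On days 7 and 14 after engraftment the mice received nanocapsules of an antibody against PD1, the free antibody against PD1, or phosphate-buffered saline (PBS), and lungs were taken on day 21, with 3 lungs in each group. Tumour, strain, sex and age range were shared by the 3 groups, and no lung of a mouse without a tumour was analysed here. The labels give 150 µg per mouse in a phrase that may or may not cover the free antibody. They number the lungs of a group and name no animals; the p-values therefore reflect only how far these samples spread, which may be technical.

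As background, fetal monocytes become alveolar macrophages when GM-CSF from the alveolar epithelium and TGF-beta induce the nuclear receptor PPAR-gamma, the product of Pparg. The mature cells take up and break down surfactant lipid, clear inhaled particles and keep the air spaces free of inflammation. Several of their markers are shared with other cells of a lung: Siglecf with eosinophils, Chil3 with neutrophil precursors, Fabp4 with capillary endothelium and adipocytes, and Car4 with a class of alveolar capillary cells. The study asked for signs of immune-related adverse effects of the treatments in the lung, a tissue in which these cells are the first phagocytes of the air space.

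Values are TPM, an abundance of transcripts scaled to a fixed total and corrected for transcript length, so that genes can be compared with each other. TPM keep no sequencing depth, so depth was unknown. Pairs of libraries from the same group had Spearman correlations of 0.938 to 0.945, and pairs from different groups 0.936 to 0.946, which overlapped. Lung genes were present in every library: the summed TPM of Sftpc, Sftpb, Scgb1a1, Ager and Cldn5 lay between 3160 and 11707 in nanocapsule lungs, between 4879 and 12883 in anti-PD1 lungs and between 3011 and 7812 in PBS lungs. In bulk tissue, fewer cells of a type and less RNA per cell cannot be told apart.

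Ear1 and Ear2 had the largest log2 differences of the members in 1 of the 3 comparisons, nanocapsule against anti-PD1. They are near-identical in sequence and are shown first, because such copies limit how far the level of each can be trusted. Both encode secreted eosinophil-associated ribonucleases and lie on chromosome 14 of GRCm38, Ear1 at chr14:43818765-43875517 on the minus strand and Ear2 at chr14:44102654-44103534 on the plus strand, each protein coding with 2 exons in its longest coding transcript. The first 120 coding bases of each are given with capitals where they differ, at 4 positions. They stand in 1 exon each, at chr14:43819290-43819409 on the minus strand and at chr14:44102887-44103006 on the plus strand, and were read from the GENCODE M21 transcripts.
Ear1: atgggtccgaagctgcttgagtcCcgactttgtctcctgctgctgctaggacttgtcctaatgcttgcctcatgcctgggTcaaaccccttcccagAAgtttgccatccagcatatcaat
Ear2: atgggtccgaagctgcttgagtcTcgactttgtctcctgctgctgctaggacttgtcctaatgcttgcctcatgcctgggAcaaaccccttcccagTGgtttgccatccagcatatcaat

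Over their whole coding sequences of 465 and 468 bases, 95.1% of aligned positions were identical, with 20 mismatches and a longest identical run of 96 bases. Cut into stretches of 31 bases, 73.6% of those of Ear1 and 60.5% of those of Ear2 also occurred in transcripts of other genes, mostly of the same family. The reference is of another strain than the BALB/c mice, so the bases of these animals may differ. Ear10 and the pseudogenes Ear-ps2 and Ear-ps9, which share 23.9% to 48.6% of these stretches, had group means of at most 0.334 TPM, so little signal was assigned to these 3. How the signal was divided between Ear1 and Ear2 remains uncertain. Of the other members, Chil3 shared 44.0% of its stretches with other genes, chiefly Chil4, which had group means of at most 0.216 TPM. The remaining 7 shared at most 2.53%.

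The 250 bases before the start of each gene, from RefSeq on GRCm38.p6, are given for the same pair. Within each treatment group the lungs stood in the same order in both genes. Plet1 and Marco had that order too, so it is not particular to the pair. By RefSeq these windows lie before the start, but that of Ear1 lies inside the longer gene that GENCODE M21 gives, so the 2 annotations place its start differently. Capitals mark bases that differ or have no partner in the other gene. The windows are chr14:43819640-43819889 on the minus strand and chr14:44102404-44102653 on the plus strand.
Ear1: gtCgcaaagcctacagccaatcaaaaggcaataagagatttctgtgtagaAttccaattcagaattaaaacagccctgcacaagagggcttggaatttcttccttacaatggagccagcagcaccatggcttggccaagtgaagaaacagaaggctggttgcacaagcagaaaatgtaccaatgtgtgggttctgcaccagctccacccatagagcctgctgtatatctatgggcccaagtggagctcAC
Ear2: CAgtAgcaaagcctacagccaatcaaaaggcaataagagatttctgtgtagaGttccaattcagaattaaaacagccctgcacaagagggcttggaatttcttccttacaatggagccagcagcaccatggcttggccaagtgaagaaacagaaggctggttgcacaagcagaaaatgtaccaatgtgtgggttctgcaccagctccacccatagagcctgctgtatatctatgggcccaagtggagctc

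These stretches were identical at 97.6% of aligned positions, with 1 run of 197 identical bases. RefSeq start windows, which run from 250 bases before to 50 after the start, were found for 9 of the 10 members, 11 windows in all, and Fabp4 had no entry. The letters TATAAA, on either strand, were in windows of Car4, Chil3, Plet1 and Pparg and in 13.6% of all 32851 windows. The letters GAGGAAGT, a binding motif of PU.1, a transcription factor of macrophages, were in none of the 11 windows and in 3.20% of all windows. The repeat that PPAR-gamma binds with its partner RXR, the peroxisome proliferator response element, was likewise in none and in 0.0396% of all. A match or its absence in so short a window says nothing of whether a factor binds.

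The secreted proteins dominated the level of the group. Chil3, which encodes the chitinase-like lectin Ym1, and Ear2 averaged 874 and 838 TPM over the 9 lungs, and Chil3 was above Ear2 in 6 of them, so that these 2 were not separated. Ear1 followed at 290.2 TPM, Plet1 at 172 TPM, Car4 at 90.4 TPM, Siglecf at 59 TPM, Krt79 at 27.9 TPM, Pparg at 19.0 TPM, Fabp4 at 9.40 TPM and Marco at 7.08 TPM. From Ear2 down to Fabp4, each gene was above the next in all 9 lungs, and Fabp4 was above Marco in 8 of 9. Ear1, Ear2 and Chil3 together held 82.1% to 84.2% of the summed TPM of the 10 genes in nanocapsule lungs, 81.6% to 86.4% in anti-PD1 lungs and 82.9% to 86.6% in PBS lungs, so the share of the secreted proteins overlapped between the groups. The 10 genes took 0.154% to 0.252% of all TPM in nanocapsule lungs, 0.277% to 0.340% in anti-PD1 lungs and 0.173% to 0.272% in PBS lungs. On this measure every anti-PD1 lung was above every other lung.

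**Figure D1:**
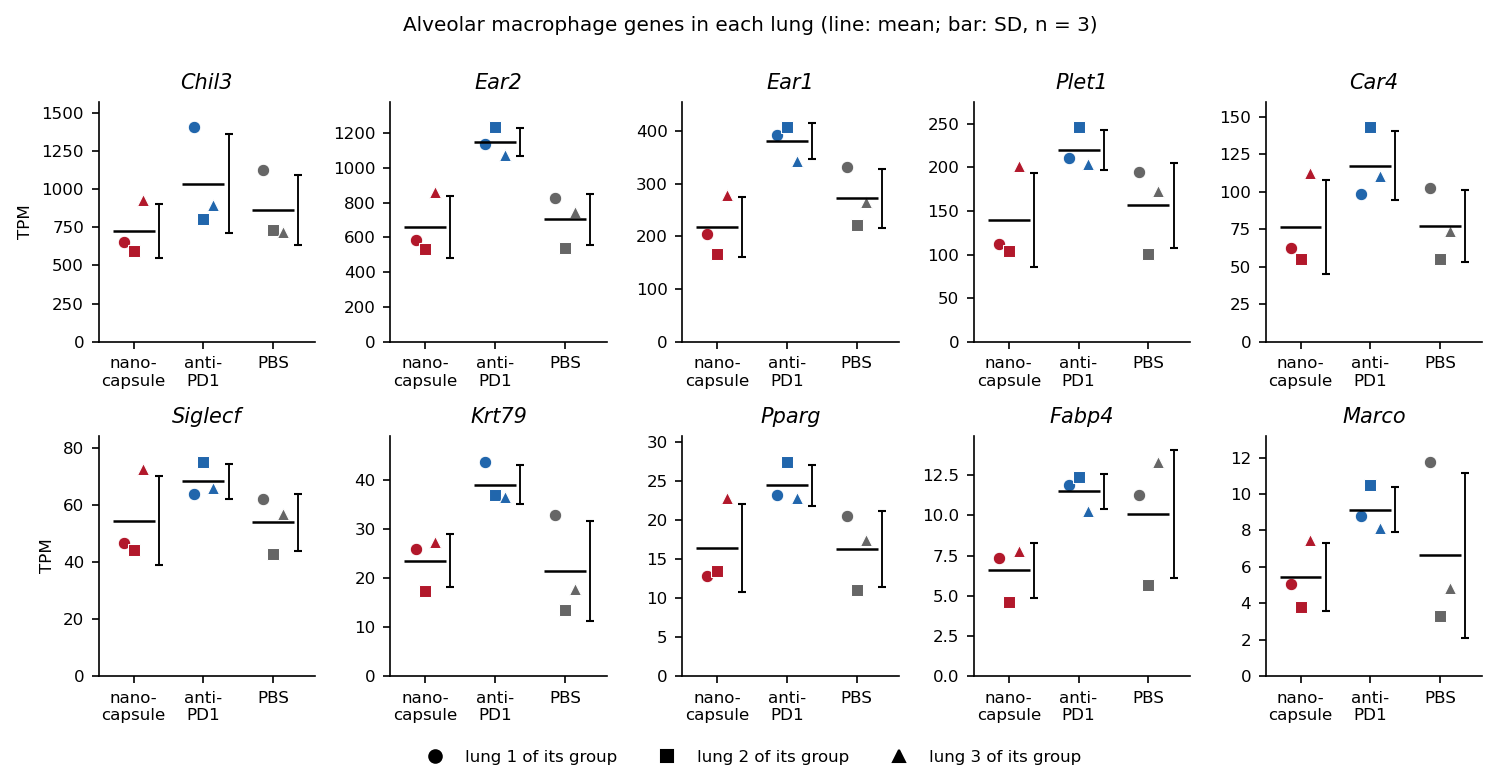
TPM of each of the 10 genes (vertical axes, each from 0) in the nanocapsule, anti-PD1 and PBS lungs, with 1 point a lung, the mean as a line and the SD as a bar (n = 3). The anti-PD1 points lie high and close together in most panels, nanocapsule lung 3 is the highest of its group in all 10, and PBS lung 2 is the lowest of its group in 9.

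Ear2 had 585, 534 and 861 TPM in nanocapsule lungs 1, 2 and 3, 1139, 1233 and 1074 TPM in anti-PD1 lungs 1, 2 and 3, and 828, 540.4 and 744 TPM in PBS lungs 1, 2 and 3. The 3 anti-PD1 lungs stood above all others, and the nanocapsule and PBS lungs overlapped. Ear1 had 205, 167 and 279 TPM in nanocapsule lungs, 392, 407 and 343 TPM in anti-PD1 lungs and 332, 221 and 265 TPM in PBS lungs, in the same lung order. Its anti-PD1 lungs again stood above all others, by a small margin over PBS lung 1. The ratio of Ear2 to Ear1 was 2.85 to 3.19 in nanocapsule lungs, 2.90 to 3.13 in anti-PD1 lungs and 2.45 to 2.81 in PBS lungs, so PBS lungs lay below both antibody groups on it. Chil3 had 655, 595 and 929 TPM in nanocapsule lungs, 1404, 806 and 899 TPM in anti-PD1 lungs and 1125, 734 and 722 TPM in PBS lungs. The 3 groups overlapped in Chil3, and anti-PD1 lung 1 alone was above PBS lung 1.

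Pparg, the nuclear receptor gene, lies on chromosome 6 (chr6:115360951-115490399, plus strand) and had 12.8, 13.4 and 22.8 TPM in nanocapsule lungs, 23.1, 27.5 and 22.7 TPM in anti-PD1 lungs and 20.5, 11.0 and 17.5 TPM in PBS lungs. The anti-PD1 lungs lay above PBS lungs, and nanocapsule lung 3 lay inside the anti-PD1 range. Fabp4, a carrier of fatty acids and a textbook PPAR-gamma target (chr3:10204088-10208576, minus strand), had 7.37, 4.60 and 7.78 TPM in nanocapsule lungs, 11.9, 12.4 and 10.3 TPM in anti-PD1 lungs and 11.3, 5.65 and 13.4 TPM in PBS lungs. Here nanocapsule lungs lay below anti-PD1 lungs, and PBS lung 3 was the highest of all 9.

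Marco, a scavenger receptor that binds inhaled particles and bacteria (chr1:120474538-120505024, minus strand), had 5.04, 3.79 and 7.50 TPM in nanocapsule lungs, 8.79, 10.5 and 8.12 TPM in anti-PD1 lungs and 11.8, 3.29 and 4.84 TPM in PBS lungs. The PBS lungs enclosed the values of both other groups, with a coefficient of variation of 68.1% in Marco, the highest of any member in any group. Siglecf, a sialic acid-binding lectin of the surface of alveolar macrophages and eosinophils (chr7:43351341-43359531, plus strand), had 46.7, 44.4 and 72.6 TPM in nanocapsule lungs, 63.9, 75.4 and 66.0 TPM in anti-PD1 lungs and 62.2, 42.9 and 57.1 TPM in PBS lungs. It varied least of the members over the 9 lungs, with a coefficient of variation of 20.5%.

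Among the remaining markers, Krt79, a keratin gene, had 25.9, 17.3 and 27.2 TPM in nanocapsule lungs, 43.7, 36.8 and 36.5 TPM in anti-PD1 lungs and 32.9, 13.5 and 17.6 TPM in PBS lungs. All 3 anti-PD1 lungs were above the other 6. Plet1, a surface protein gene first known from the placenta, had 112, 104.5 and 201 TPM in nanocapsule lungs, 211, 246 and 203 TPM in anti-PD1 lungs and 195, 101 and 173 TPM in PBS lungs. Its anti-PD1 lungs were also above the other 6, though only just above nanocapsule lung 3. Car4, a membrane-bound carbonic anhydrase, had 62.3, 55.1 and 112 TPM in nanocapsule lungs, 98.2, 143 and 111 TPM in anti-PD1 lungs and 103, 55.2 and 73.8 TPM in PBS lungs, and anti-PD1 lungs overlapped both other groups. PBS lung 2 or nanocapsule lung 2 was the lowest of the 9 lungs in each of the 10 genes, 5 genes each. Anti-PD1 lungs were the highest in 8 genes, and PBS lungs in Marco and Fabp4.

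In the first comparison, of free antibody with PBS, all 10 genes had higher means in anti-PD1 lungs and none passed the test. Limma called 1 of 13248 genes at an adjusted p under 0.05, which is 0.00755%, and that gene, Hspa1b, a heat shock gene named after its values were seen, is no member. At an unadjusted p under 0.05, 4 of the 10 members were higher (Ear1, Ear2, Krt79 and Pparg), against 8.48% of all genes tested. In 6 of the 10 every anti-PD1 lung lay above every PBS lung, against 12.1% of all genes. The median log2 difference of the members was 0.55, beside 0.041 over all tested genes, of which 7533 were higher and 5715 lower.

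Krt79 had the largest difference, with 39.0 ± 4.06 TPM in anti-PD1 lungs and 21.3 ± 10.2 TPM in PBS lungs (SD, n = 3), or 0.93 on the log2 scale (SE 0.28; adjusted p = 0.213 by limma). Ear2 averaged 1149 ± 80.1 TPM with anti-PD1 and 704 ± 148 TPM with PBS (SD, n = 3), or 0.73 on the log2 scale (SE 0.20; adjusted p = 0.211 by limma). For Car4, Pparg, Marco, Plet1 and Ear1 the log2 differences were 0.62, 0.59, 0.56, 0.54 and 0.50, and for Siglecf, Chil3 and Fabp4 they were 0.35, 0.26 and 0.24. The 95% intervals of Ear1, Ear2, Krt79 and Pparg lay above 0, and the other 6 included 0. An exact permutation test of 3 lungs against 3 cannot give a two-sided p below 0.1. The size of the difference rested in part on 2 PBS lungs: without PBS lung 2 the median of the members was 0.30 and Fabp4 had -0.090, without PBS lung 1 the median was 0.75, and Chil3 was at 0.016 without anti-PD1 lung 1.

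**Figure D2:**
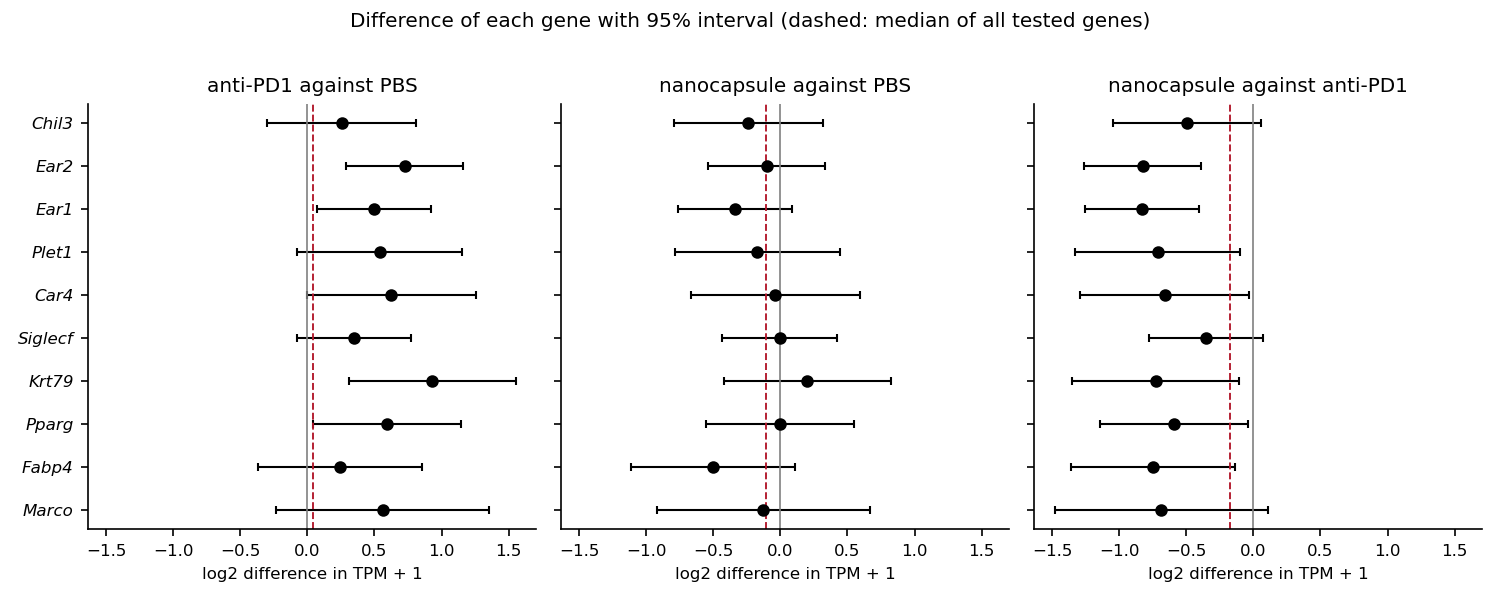
Log2 difference in TPM + 1 (horizontal axes) of each gene in the 3 comparisons, with its 95% interval from limma; the dashed line is the median of all 13248 tested genes. All points lie above 0 for anti-PD1 against PBS and below 0 for nanocapsule against anti-PD1, and all intervals include 0 for nanocapsule against PBS.

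In the second comparison, of nanocapsules with PBS, the levels of the 10 genes overlapped between the groups in every case. Limma called 1 gene of all tested (0.00755%), again Hspa1b and no member. None of the 10 had an unadjusted p under 0.05, against 1.22% of all genes higher and 8.92% lower, and none had groups that did not overlap, against 2.40% of all genes higher throughout and 11.9% lower throughout. On the log2(TPM + 1) scale 9 members were lower in nanocapsule lungs and Krt79 was higher, but the mean TPM of Siglecf and Pparg was slightly higher too, and with median-of-ratios scaling 5 were lower and 5 higher, so no direction is given for the group. The median log2 difference of the members was -0.12, beside -0.11 over all tested genes, of which 9430 were lower and 3817 higher.

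The largest value was that of Fabp4, at 6.58 ± 1.73 TPM in nanocapsule lungs and 10.1 ± 3.99 TPM in PBS lungs (SD, n = 3), a log2 difference of -0.50 (95% interval -1.12 to 0.11, limma adjusted p = 0.553). Ear1 followed, at 217 ± 56.8 TPM with nanocapsules and 273 ± 56.1 TPM with PBS (SD, n = 3), with a log2 difference of -0.34 (95% interval -0.76 to 0.088). Pparg averaged 16.3 ± 5.63 TPM in nanocapsule lungs and 16.3 ± 4.86 TPM in PBS lungs (SD, n = 3), with an interval of -0.55 to 0.55. Marco had the widest interval, -0.92 to 0.67. The median of the members was -0.35 without nanocapsule lung 3 and -0.31 without PBS lung 2, and was above 0 without nanocapsule lung 2 (0.050) or PBS lung 1 (0.064).

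In the third comparison, of nanocapsules with the free antibody, all 10 genes had lower means in nanocapsule lungs, under the deposited scaling and both alternative scalings. Limma called 14 genes of all tested, or 0.106%, and no member was among them. At an unadjusted p under 0.05, 7 of 10 were lower (Ear1, Ear2, Fabp4, Plet1, Krt79, Pparg and Car4), against 21.0% of all genes. In 6 of 10 (Ear1, Ear2, Marco, Fabp4, Plet1 and Krt79) every nanocapsule lung lay below every anti-PD1 lung, against 24.6% of all genes. The median log2 difference of the members was -0.70, beside -0.17 over all tested genes, of which 9375 were lower and 3873 higher. Median-of-ratios scaling brought the median of all genes to -0.0019 and that of the members to -0.52, so the differences in this comparison are to be read against that shift.

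Ear1 and Ear2 had the largest differences on the log2(TPM + 1) scale, though with a pseudocount of 0.1 Fabp4 stood level with them. Ear1 was at 217 ± 56.8 TPM in nanocapsule lungs and 381 ± 33.8 TPM in anti-PD1 lungs (SD, n = 3), or -0.83 on the log2 scale (SE 0.19; adjusted p = 0.0693 by limma). Ear2 was at 660.3 ± 176 TPM with nanocapsules and 1149 ± 80.1 TPM with anti-PD1 (SD, n = 3), or -0.83 on the log2 scale (SE 0.20; adjusted p = 0.0723 by limma). Fabp4, Krt79, Plet1, Marco, Car4 and Pparg had log2 differences of -0.75, -0.73, -0.71, -0.69, -0.66 and -0.59, and Chil3 and Siglecf had -0.50 and -0.35, with limma adjusted p between 0.129 and 0.247 for these 8. Both Ear genes were called in the fit on the 2 groups alone (limma adjusted p = 0.0433 and 0.0432 for Ear1 and Ear2) and without PBS lung 2 (0.0328 and 0.0278), and Fabp4 was called without PBS lung 2 (0.0443). Over all settings tried the adjusted p of Ear1 lay between 0.0328 and 0.230 and that of Ear2 between 0.0278 and 0.230. The comparisons share samples, and the members' differences in the 3 of them are therefore not separate evidence.

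Nanocapsule lung 3 had the highest value of its group in all 10 genes, and nanocapsule lung 2 the lowest in 9. In Fabp4 and Krt79 lung 3 was close to lung 1. Without lung 3 the median of the members was -0.89 against anti-PD1 lungs, and without lung 2 it was -0.51.

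Other genes of alveolar macrophages had differences of similar size. Of 19 listed markers 18 were tested, and 17 had higher means in anti-PD1 lungs than in PBS lungs, with a median log2 difference of 0.51, and 17 had lower means in nanocapsule lungs than in anti-PD1 lungs, with a median of -0.69. None was called in any comparison, and Ear10 was not tested. Fabp1, another carrier of fatty acids, was at 69.1 ± 14.8 TPM in nanocapsule lungs, 130 ± 21.7 TPM in anti-PD1 lungs and 78.8 ± 13.3 TPM in PBS lungs (SD, n = 3), and its limma adjusted p was 0.0567 for nanocapsule against anti-PD1. Cd2, an adhesion molecule also carried by T cells, was at 90.5 ± 15.0 TPM with nanocapsules, 151 ± 4.75 TPM with anti-PD1 and 125 ± 19.9 TPM with PBS (SD, n = 3; limma adjusted p = 0.0527 for nanocapsule against anti-PD1). The exception in direction was Serpinb1a, an inhibitor of neutrophil proteases, at 110.4 ± 9.68 TPM with nanocapsules, 87.0 ± 7.91 TPM with anti-PD1 and 105 ± 4.42 TPM with PBS (SD, n = 3). Against PBS, 17 of the 18 were lower by value with nanocapsules, with a median of -0.14, but 12 of 18 with median-of-ratios scaling. Of all 13248 tested genes, 9430 were also lower with nanocapsules than with PBS under the deposited scaling, with a median of -0.11.

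Genes of lipid and surfactant handling leaned the same way, and those of the GM-CSF and TGF-beta pathway were split in direction. Of 13 lipid genes, 10 had higher means in anti-PD1 lungs than in PBS lungs, and 12 had lower means in nanocapsule lungs than in anti-PD1 lungs, with medians of 0.24 and -0.31 and none called. Pltp, which transfers phospholipid, was at 94.7 ± 16.0 TPM in nanocapsule lungs and 159 ± 2.01 TPM in anti-PD1 lungs (SD, n = 3; limma adjusted p = 0.0519). Cd36, a lipid scavenger receptor also of capillary endothelium, was at 32.9 ± 11.6 TPM with nanocapsules and 59.7 ± 9.95 TPM with anti-PD1 (SD, n = 3). Plin2, which coats lipid droplets, was at 405 ± 45.7 TPM with nanocapsules and 540.2 ± 44.2 TPM with anti-PD1 (SD, n = 3). Of 16 tested genes of the GM-CSF and TGF-beta pathway, 7 were higher and 9 lower by value in anti-PD1 lungs against PBS, and 6 were higher and 10 lower in nanocapsule lungs against anti-PD1, with medians of -0.034 and -0.10. Of all tested genes, 56.9% were higher in anti-PD1 lungs against PBS and 29.2% in nanocapsule lungs against anti-PD1. The same shares were 43.75% and 37.5% for the pathway genes and 76.9% and 7.69% for the lipid genes. Csf2rb, the signalling chain of the GM-CSF receptor, was at 285 ± 51.5 TPM in nanocapsule lungs, 236 ± 21.8 TPM in anti-PD1 lungs and 298 ± 29.5 TPM in PBS lungs (SD, n = 3). Spi1, which encodes PU.1, was at 864 ± 61.6 TPM with nanocapsules, 699 ± 91.4 TPM with anti-PD1 and 826 ± 64.7 TPM with PBS (SD, n = 3). Itgav, an integrin chain that activates TGF-beta, was at 13.1 ± 1.15 TPM with nanocapsules, 9.34 ± 0.854 TPM with anti-PD1 and 9.49 ± 1.09 TPM with PBS (SD, n = 3). These 3 genes, named for their small p in limma's F test, were all among the 6 higher with nanocapsules than with anti-PD1. They therefore do not stand for the 10 lower ones. Spi1 and Csf2rb are also expressed by neutrophils. Csf2, the GM-CSF gene, was below 1 TPM in all 9 lungs and was not tested.

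**Figure D3:**
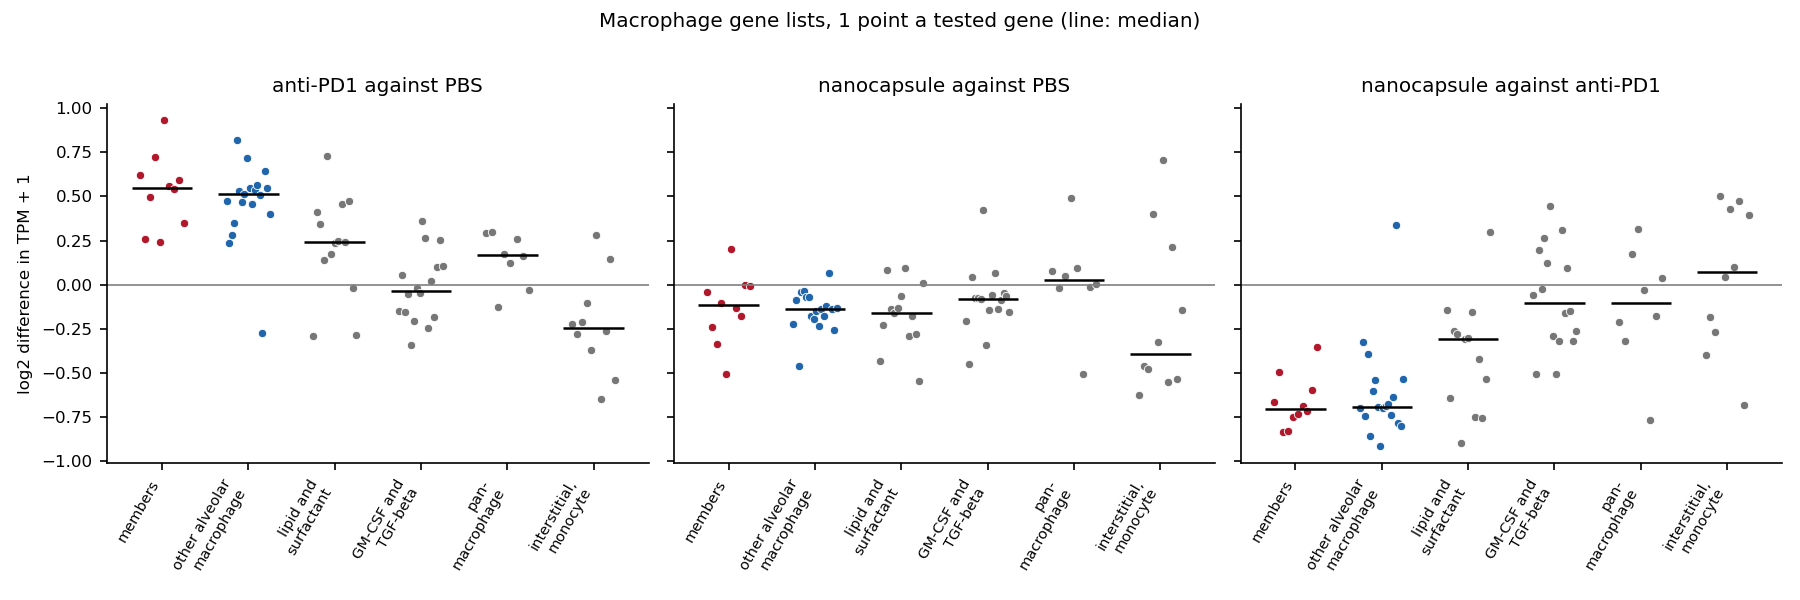
Log2 difference in TPM + 1 (vertical axis) of each tested gene of 6 macrophage gene lists in the 3 comparisons, with the median of each list as a line. The members and the other alveolar macrophage genes have medians of 0.55 and 0.51 for anti-PD1 against PBS and of -0.70 and -0.69 for nanocapsule against anti-PD1, while the pan-macrophage genes have 0.17 and -0.10 and the interstitial macrophage and monocyte genes -0.24 and 0.073.

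Genes of macrophages in general were closer together between groups. Of 8 pan-macrophage genes, 6 were higher in anti-PD1 lungs than in PBS lungs and 5 were lower in nanocapsule lungs than in anti-PD1 lungs, by value, with medians of 0.17 and -0.10. By share, 75% and 37.5% of them were higher in these comparisons, beside 56.9% and 29.2% of all tested genes. Cd68, a lysosomal protein gene of macrophages, was at 301 ± 54.3 TPM in nanocapsule lungs, 372 ± 45.4 TPM in anti-PD1 lungs and 304 ± 45.5 TPM in PBS lungs (SD, n = 3). Mertk, a receptor for dying cells, was at 3.64 ± 1.37 TPM with nanocapsules, 6.68 ± 0.326 TPM with anti-PD1 and 5.50 ± 1.30 TPM with PBS (SD, n = 3). Fcgr1, a high-affinity receptor for antibodies, was at 24.5 ± 2.48 TPM with nanocapsules, 19.5 ± 2.46 TPM with anti-PD1 and 17.3 ± 3.48 TPM with PBS (SD, n = 3), with every nanocapsule lung above all others. Of 10 genes of interstitial macrophages and monocytes, 8 were lower in anti-PD1 lungs than in PBS lungs and 6 were higher in nanocapsule lungs than in anti-PD1 lungs, with medians of -0.24 and 0.073 and none called. Cx3cr1, a chemokine receptor of monocytes, was at 18.2 ± 4.61 TPM with nanocapsules, 13.1 ± 1.97 TPM with anti-PD1 and 10.6 ± 1.89 TPM with PBS (SD, n = 3). Folr2, a folate receptor gene, was at 1.73 ± 0.498 TPM with nanocapsules, 1.54 ± 0.461 TPM with anti-PD1 and 2.95 ± 0.375 TPM with PBS (SD, n = 3).

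Markers of other cells that express single members stood at different levels by value, and their part in the members' differences was not tested. Limma called none of the eosinophil, endothelial, alveolar type 2 or airway genes in any comparison. At an unadjusted p under 0.05 it gave 5 of 5 tested eosinophil genes, all lower, for either antibody form against PBS. It gave 9 of 10 endothelial genes in each comparison with anti-PD1 lungs, and 5 of 6 alveolar type 2 genes for anti-PD1 against PBS. Of all genes, 8.06% were lower and 8.48% higher at that threshold for anti-PD1 against PBS. The share lower was 8.92% for nanocapsule against PBS and 21.0% for nanocapsule against anti-PD1. Eosinophil genes had lower means in both antibody groups than in PBS in all 5 tested of 6, whereas Siglecf, Ear1 and Ear2 had higher means in anti-PD1 lungs. Their summed TPM was 38.8 to 45.8 in nanocapsule lungs, 22.9 to 35.5 in anti-PD1 lungs and 76.0 to 144 in PBS lungs, and Epx, the eosinophil peroxidase gene, was below 2 TPM in every lung. Prg2, the eosinophil major basic protein gene, was at 11 ± 1.36 TPM with nanocapsules, 6.66 ± 2.86 TPM with anti-PD1 and 34.9 ± 10.6 TPM with PBS (SD, n = 3). The ratio of Siglecf to Prg2 was 3.72 to 7.07 in nanocapsule lungs, 7.29 to 18.3 in anti-PD1 lungs and 0.911 to 2.07 in PBS lungs. Capillary endothelial genes, which matter for Car4 and Fabp4, were higher in anti-PD1 lungs than in PBS lungs in 10 of 10 and lower in nanocapsule lungs than in anti-PD1 lungs in 10 of 10, by value, with medians of 1.38 and -1.38. Their summed TPM was 43.2 to 104 in nanocapsule lungs, 137 to 268 in anti-PD1 lungs and 43.1 to 113 in PBS lungs. Kdr, a receptor of vascular growth factor, was at 2.72 ± 0.638 TPM with nanocapsules, 7.92 ± 2.20 TPM with anti-PD1 and 3.12 ± 1.61 TPM with PBS (SD, n = 3). The median endothelial difference was larger than that of Car4 or Fabp4 in both comparisons with anti-PD1 lungs, but single genes differed less. Ednrb had the smallest differences of the 10, 0.054 for anti-PD1 against PBS and -0.39 for nanocapsule against anti-PD1. Pecam1 had 0.53 and -1.02, beside 0.62 and -0.66 for Car4 and 0.24 and -0.75 for Fabp4. Cldn5 had the largest difference of the 10 for anti-PD1 against PBS, at 1.76, so ratios to it depend on that choice. The Fabp4 to Cldn5 ratio was 0.306 to 0.595 in nanocapsule lungs, 0.156 to 0.372 in anti-PD1 lungs and 0.590 to 1.11 in PBS lungs. The ratio of Car4 to Cldn5 was 2.59 to 7.80 in nanocapsule lungs, 1.68 to 4.30 in anti-PD1 lungs and 3.26 to 10.8 in PBS lungs, with overlap between the groups.

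For Fabp4 and Pparg, adipocyte markers were at or near 0: Lep was at 0 in all 9 lungs and Adipoq at most 0.128 TPM, and the 6 listed genes summed to 2.43 to 6.31 TPM, mostly from Retn. For Chil3, the 11 neutrophil and precursor genes were all lower in anti-PD1 lungs than in PBS lungs, with a median of -0.70. All were higher in nanocapsule lungs than in anti-PD1 lungs, with a median of 0.91. Chil3 had the other sign by value, at 0.26 and -0.50, but its groups overlapped in both comparisons and limma did not call it. Of the neutrophil and precursor genes, limma called 2, Cebpe and Elane, higher for nanocapsule against anti-PD1, against 0.106% of all genes in either direction. Cebpe, a transcription factor of granulocyte maturation, was at 38.9 ± 0.0474 TPM in nanocapsule lungs and 18.9 ± 0.916 TPM in anti-PD1 lungs (SD, n = 3; limma adjusted p = 0.0393). The summed TPM of the list, mostly S100a8 and S100a9, was 171990.1 to 195042 in nanocapsule lungs, 112535 to 128729 in anti-PD1 lungs and 133973 to 185810.0 in PBS lungs. For Krt79 and Plet1, Krt5, Krt14, Krt15 and Krt17, keratins of stratified epithelium, were below 1 TPM in all 9 lungs. The other 5 genes of that list, of airway and simple epithelium, were expressed, and 4 of them had higher means in anti-PD1 lungs than in PBS lungs and all 5 lower means in nanocapsule lungs than in anti-PD1 lungs, with medians of 0.19 and -0.52 and overlap in each. Scgb1a1, the club cell secretory protein gene, was at 4563 ± 2978 TPM with nanocapsules, 7455 ± 3695 TPM with anti-PD1 and 4503 ± 2032 TPM with PBS (SD, n = 3). The 6 alveolar type 2 genes were all higher by value in anti-PD1 lungs than in PBS lungs, 5 of them without overlap, against 12.1% of all genes. All 6 were lower in nanocapsule lungs than in anti-PD1 lungs, with overlap in each, and the medians of the 2 comparisons were 1.26 and -0.56. Sftpc, a marker of the surfactant-making alveolar type 2 cells, was at 1651 ± 1531 TPM with nanocapsules, 2017 ± 1130.3 TPM with anti-PD1 and 723 ± 346 TPM with PBS (SD, n = 3).

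The lungs did not fall in 1 order on all lists. Relative to the mean of the 9 lungs, the mean log2(TPM + 1) of the members was -0.36, -0.59 and 0.16 in nanocapsule lungs 1 to 3, 0.42, 0.49 and 0.29 in anti-PD1 lungs 1 to 3 and 0.29, -0.58 and -0.10 in PBS lungs 1 to 3. The other alveolar macrophage genes gave -0.42, -0.52 and 0.19 with nanocapsules, 0.32, 0.50 and 0.26 with anti-PD1 and 0.21, -0.53 and 0.0081 with PBS. The endothelial genes gave 0.0074, -0.86 and -0.42 with nanocapsules, 0.69, 0.44 and 1.27 with anti-PD1 and -0.27, -0.99 and 0.14 with PBS. Nanocapsule lung 3 was thus above the mean in alveolar macrophage genes and below it in endothelial genes, while PBS lung 2 and nanocapsule lung 2 were low in both. Alveolar type 2 genes were high in nanocapsule lung 1, at 1.13, where the members were low.

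**Figure D4:**
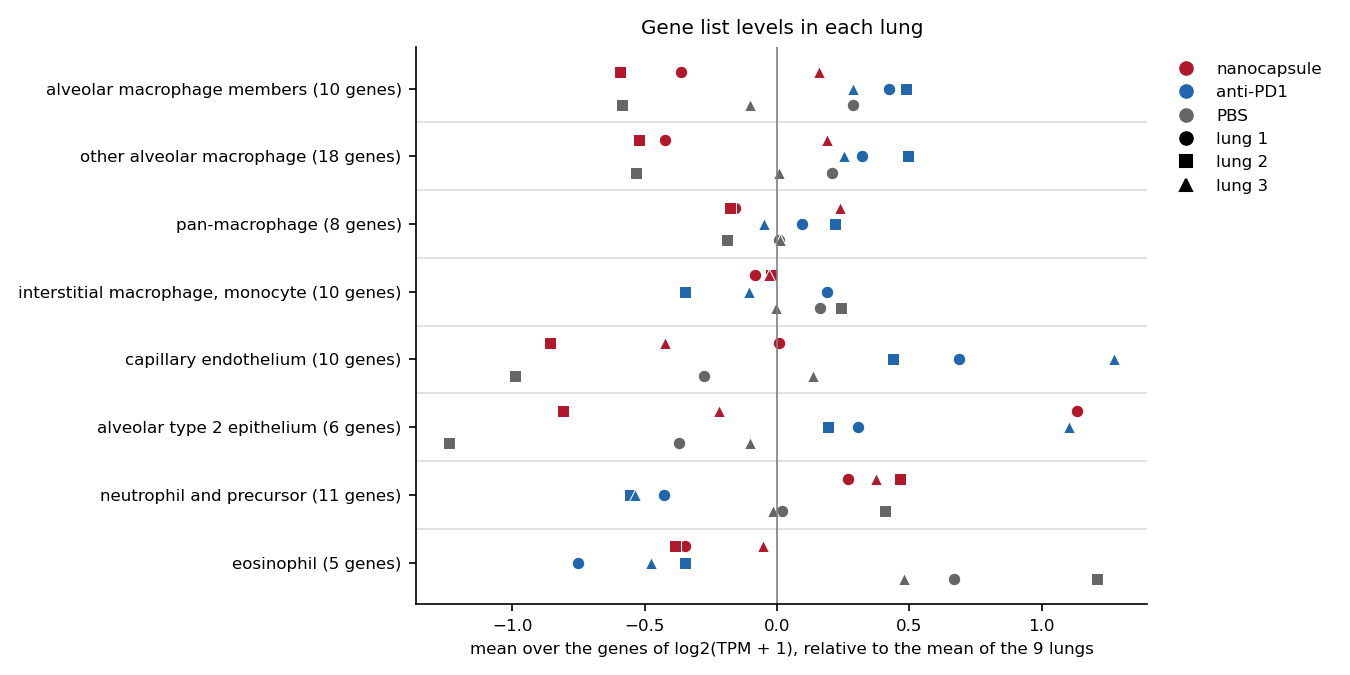
Mean log2(TPM + 1) over the tested genes of each list, relative to the mean of the 9 lungs (horizontal axis), with 1 point a lung; colours mark the groups and shapes the lung number. The members and the other alveolar macrophage genes place the lungs alike, with nanocapsule lung 3 at 0.16 and 0.19 and PBS lung 2 at -0.58 and -0.53, whereas the endothelial and neutrophil lists place nanocapsule lung 3 at -0.42 and 0.37.

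Among the 9030 other genes that averaged 5 TPM or more, the 5 whose course over the 9 lungs was nearest to the mean course of the members were Lima1, Mt1, Slamf9, Anxa4 and Nceh1. Likeness was the root-mean-square distance between log2(TPM + 1) values, each centred on its own mean over the 9 lungs, and it was 0.0547, 0.0608, 0.0647, 0.0654 and 0.0676 log2 units for these genes, beside a median of 0.396 over the 9030. Lima1 averaged 17.1 TPM, Mt1, a metallothionein gene, 270.1 TPM, Slamf9 23.2 TPM, Anxa4, an annexin gene, 69.7 TPM and Nceh1, a hydrolase of cholesterol esters and one of the listed alveolar macrophage genes, 40.8 TPM. Of the members themselves, Plet1, Ear2, Pparg and Ear1 were nearest to their common course, at 0.111 to 0.117, and Chil3 was farthest, at 0.264, followed by Fabp4 and Krt79.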

How the data were processed

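The authors deposited TPM per gene for the 9 lungs. The table's name points to salmon. DESeq2 and the build GRCm38 appear in the submitters' processing notes, with no role or version. Aligner settings and filters are not given in the sources used here. Because these values are not counts, no count test was run, and depth was unknown. Of the 45706 genes, 22232 were at 0 throughout.

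Genes reaching 1 TPM in 3 or more lungs (13248) entered 1 limma model (version 3.58.1, R 4.3.3) of log2(TPM + 1) over all 9 lungs, with an intensity trend, no block and 6 residual degrees of freedom. P-values were two-sided, with Benjamini-Hochberg adjustment over all genes tested, and the threshold for a call was an adjusted p of 0.05. A fold on this scale understates the change of low genes. The procedure was tested on simulated data. The members and the gene lists were chosen with earlier results of these data known. All 10 members are named, with the 3 genes of a list that had the smallest p in limma's F test, markers that bear on a shared member, and the 5 genes nearest in course. One gene that this rule names is not reported here. Hspa1b, Epx, Csf2, Ednrb, Pecam1 and the keratins were named after their values were seen. Stretches of 31 bases were counted over GENCODE M21 transcripts. In all, 18 alternatives were fitted: 9 settings and the omission of each lung.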

Additional observations from a re-analysis of the deposited data

How the results depend on the processing

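Of the members, no difference between anti-PD1 and PBS or between nanocapsule and anti-PD1 changed direction under the 18 alternatives, except Fabp4 for anti-PD1 against PBS, and no member was called in the first 2 comparisons under any of them. The calls of Ear1, Ear2 and Fabp4 gained in the third comparison with the 2 groups alone or without PBS lung 2 are given above, those with the replicate block at the end, and the cause of these changes was not tested. Omitting single lungs gave -0.090 to 0.47 for Fabp4 in anti-PD1 against PBS. In nanocapsule against PBS, differences near 0 changed sign. Median-of-ratios scaling gave 0.022 for Ear2, 0.11 for Siglecf, 0.12 for Pparg and 0.083 for Car4, and TPM renormalized without S100a8, S100a9, mitochondrial and haemoglobin genes gave 0.027 for Siglecf and 0.032 for Pparg. Omitting single lungs gave -0.31 to 0.035 for Ear2, -0.47 to 0.32 for Marco, -0.23 to 0.12 for Siglecf, -0.47 to 0.013 for Plet1, -0.065 to 0.55 for Krt79, -0.25 to 0.18 for Pparg, -0.35 to 0.19 for Car4 and -0.35 to 0.064 for the median of the members.

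The number of genes called over the whole table was not stable. For anti-PD1 against PBS it was 1, and it was 0 with a pseudocount of 0.1, median-of-ratios scaling, renormalized TPM or no intensity trend, and 0 to 3 without single lungs; with the filter as reported, limma gave 2192 genes at an unadjusted p under 0.05. With no filter it was again 1, but higher in anti-PD1 lungs where the reported call was lower. For nanocapsule against PBS it was 1, and it was 2 with a pseudocount of 0.5, a pseudocount of 0.1 or no intensity trend, 0 with no filter (1730 genes at an unadjusted p under 0.05), 4 with median-of-ratios scaling, 3 with renormalized TPM and 0 to 4 without single lungs. For nanocapsule against anti-PD1 it was 14, and it was 3 with no filter, 182 with a filter at 5 TPM, 22 (20 higher, 2 lower) with median-of-ratios scaling, 80 (52 higher, 28 lower) with renormalized TPM, 476 (175 higher, 301 lower) with the 2 groups alone, 2 with no intensity trend and 0 to 962 without single lungs. It was 962 without PBS lung 2, 188 without PBS lung 3, 12 without PBS lung 1, 5 without nanocapsule lung 1, 1 without nanocapsule lung 3 or anti-PD1 lung 3, and 0 without nanocapsule lung 2, anti-PD1 lung 1 or anti-PD1 lung 2, where 2179, 2491 and 4068 genes had an unadjusted p under 0.05. Deviations from the group means correlated at -0.18 to 0.28 for same-numbered lungs and at -0.26 to 0.22 for differently numbered lungs of different groups. As these ranges overlapped and the labels name no pairs, the numbers were not read as pairs. With the replicate number as a block it was 5 for nanocapsule against PBS and 1095 for nanocapsule against anti-PD1, where Ear1 and Ear2 had limma adjusted p of 0.0433 and 0.0437; the lungs share only a number, and of members this changed no other call.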
